A study of Mus musculus with 20 samples.

Results

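The genes described here carry glucose to pyruvate and lactate. They were 35 listed mouse genes for glucose uptake, the 10 reactions of glycolysis, the control of phosphofructokinase by fructose 2,6-bisphosphate, the 2,3-bisphosphoglycerate side branch, lactate production and export, and the entry of pyruvate into mitochondria. Members were listed by name, and the list sets no threshold on a measured value. All 35 matched 1 row each of the 37748 gene entries in the table. To be tested, a gene had to reach a value of 1 in 5 or more of the 20 libraries, which 31 members and 10890 entries in all did. The other 4 were Slc2a1 (the glucose transporter GLUT1), Aldoc, Eno2 and Tigar, and they were not tested as single genes. Slc2a1, Aldoc and Eno2 still entered the isozyme shares below.

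RNA was sequenced from colony-forming unit erythroid cells (CFU-E), late progenitors committed to the red cell lineage. The sorting gate took live marrow cells that lacked lineage markers, Sca-1, CD41, CD16/32 and CD150 and carried CD105 with high c-Kit. There were 4 groups of 5 libraries. Mx1-Cre mice injected with phosphate-buffered saline (PBS) and Mx1-Cre mice injected with phenylhydrazine (PHZ) served as controls. Mx1-Cre Srsf2P95H/+ mice, called P95H below, received PBS or PHZ in the same way. PHZ, a drug that lyses red cells, was given under the skin in 2 doses of 30 mg/kg, on day 0 and on day 1. Sorting followed on day 4. All 20 mice therefore carried Mx1-Cre, an interferon-inducible recombinase that acts in blood-forming cells and also in other tissues. The time from recombination to sorting and the age of the mice were not stated in the labels. The P95H allele, heterozygous, changes 1 residue of the splicing factor SRSF2. Each library carries a number of its own in the labels, and p-values measure the spread between these libraries, which the labels do not tie to separate mice beyond that number.

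Values are a normalised signal with the form of TPM, a unit scaled for gene length and library size, so levels can be compared between genes. The deposited sums per library ran from 924763 to 1085047, and 10364 to 10755 entries reached 1. The table holds no read counts, so no counting error can be attached to a value. All 12 CFU-E and erythroid markers were at a mean of at least 1 in every group. Markers of granulocytes and monocytes were present as well: of 18, 16 (PBS) and 14 (PHZ) reached a mean of 1 in Mx1-Cre, and 17 (PBS) and 14 (PHZ) in P95H. Their summed signal in Mx1-Cre libraries ran from 443.6 to 938 with PBS and from 147 to 1058 with PHZ. In P95H libraries it ran from 547 to 2412 with PBS and from 156 to 585 with PHZ. Mpo, Elane, S100a8 and S100a9 were above 0 in all libraries. Of the markers of other cells, 1 of 7 for macrophages, 3 of 7 for megakaryocytes, 2 of 7 for lymphoid cells, 1 of 7 for basophils and mast cells and 2 of 7 for stem and early progenitor cells passed the filter. P95H PBS libraries 4 and 5 had the highest granulocyte and monocyte marker levels, and results that rest on them are given with and without them.

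Glycolysis splits glucose to pyruvate and yields ATP without oxygen. Red cells lose their mitochondria as they mature and then live on glycolysis alone, and a deficiency of the red cell pyruvate kinase, encoded by Pklr, causes haemolytic anaemia. Erythroid cells also divert part of the flow through 2,3-bisphosphoglycerate, which lowers the affinity of haemoglobin for oxygen. CFU-E still have mitochondria, so pyruvate can leave as lactate or enter the mitochondrial matrix, and pyruvate dehydrogenase kinases hold that second route back.

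In control cells without PHZ (Mx1-Cre PBS), the module was led by Gapdh at 1363 ± 53.6 (mean ± SD over 5 libraries, as for all means below). Ldha followed at 715 ± 85.3, Hk1 at 397 ± 18.2, Tpi1 at 369 ± 26.5, Aldoa at 329 ± 16.4 and Pklr at 321 ± 14.4. In several families 1 isozyme held most of the signal. Hk1 made up 99.7% ± 0.0371 of Hk1 plus Hk2, Aldoa 99.8% ± 0.0348 of the measured aldolases, Pklr 98.6% ± 0.552 of the pyruvate kinases and Slc16a1 99.1% ± 0.132 of the measured lactate transporters. Ldhb was only 0.221% ± 0.064 of the lactate dehydrogenases. Among the glucose transporters listed, Slc2a3 (GLUT3) was at 30 ± 3.1, whereas Slc2a1 was at 0.555 ± 0.141. Eno2 was listed at 0 in 19 of 20 libraries. Mixed families were phosphofructokinase, where Pfkl held 29.9% ± 1.46 and Pfkm most of the rest, the Pfkfb enzymes, where Pfkfb4 held 32.3% ± 5.73 and Pfkfb2 most of the rest, and the pyruvate dehydrogenase kinases, where Pdk1 held 44.5% ± 1.36 and Pdk3 45.1% ± 1.36. The 35 members together took 0.518% ± 0.035 of the library signal in Mx1-Cre mice given PBS and 0.640% ± 0.034 after PHZ. The P95H values were 0.519% ± 0.025 and 0.628% ± 0.014. Every PHZ library (0.598% or more) lay above every PBS library (0.556% or less). The median coefficient of variation of members within a group was 7.92% to 9.49%, against 8.57% to 10.3% for all genes kept.

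After PHZ, genes at most steps from glucose uptake to lactate export were higher in control mice, and a smaller set was lower. In Mx1-Cre mice 20 of the 31 members passed the test (adjusted p at most 0.05), 16 higher and 4 lower, where 31.9% of all genes kept passed, 17% higher and 14.9% lower. The median difference of the members was 0.15 on the log2(value + 1) scale, and that of all genes was -0.0015. All differences below are on this scale, PHZ minus PBS or P95H minus Mx1-Cre, and they understate the change of low genes. Groups did not overlap for 11 members higher and 3 lower after PHZ, against 12.6% and 9.82% of all genes. In P95H mice 17 members passed, 12 higher and 5 lower, where 30.2% of all genes passed, 12.6% higher and 17.7% lower. Their median difference was 0.056, against -0.015 for all genes, and the groups did not overlap for 10 members higher and 4 lower, against 7.59% and 10% of all genes. Of the members, 12 were higher in both genotypes and 3 were lower in both, against 9.7% and 10.5% of all genes. The 12 were Slc2a3, Hk1, Pfkp, Tpi1, Gapdh, Pgam1, Eno1, Ldha, Slc16a1, Slc16a3, Pdha1 and Pdk1, and the 3 were Pfkfb4, Ldhb and Pdk2. Of these, Ldhb passed the filter only through its PBS libraries, where it was high. Since the cells were measured in bulk, fewer cells of a type and less RNA per cell cannot be told apart here. Markers of the sorted cells and of other cells moved with PHZ as well. Of the 12 CFU-E and erythroid markers, 1 was called higher and 2 lower in Mx1-Cre, and 1 higher and 4 lower in P95H. The 1 higher was Tfrc, the transferrin receptor, which rose from 366 ± 37.7 to 682 ± 73.0 in Mx1-Cre and from 421 ± 84.3 to 697 ± 18.5 in P95H. Kit, part of the sorting gate, fell from 108 ± 27.6 to 60.6 ± 5.73 and from 87.7 ± 13.1 to 51.9 ± 12.9. Eng (CD105), also in the gate, was lower in both genotypes, and Klf1 and Gata1 were lower in P95H. Both kept stem and early progenitor markers were lower in both genotypes: Myb fell from 198 ± 30.6 to 123 ± 11.8 in Mx1-Cre and from 170 ± 12.2 to 102 ± 13.5 in P95H, and Gata2 from 15.97 ± 2.68 to 8.34 ± 0.763 and from 14.4 ± 2.72 to 7.88 ± 2.63. Both kept lymphoid markers were lower as well, among them Ighm, from 2.48 ± 0.287 to 0.320 ± 0.258 and from 4.65 ± 2.29 to 0.460 ± 0.241. No lymphoid marker reached a mean of 1 in a PHZ group. The filter thus kept these markers through the PBS groups, where they were high, so their direction says little about the list. Of 3 kept megakaryocyte markers, 2 were lower in Mx1-Cre and 1 in P95H, and Gp9 fell in both. The 1 kept basophil and mast cell marker was higher in both genotypes, but in that list a mean of 1 was reached only in the PHZ groups. The 1 kept macrophage marker was not called. The part of these shifts in the members' differences was not tested.

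**Figure D1:**
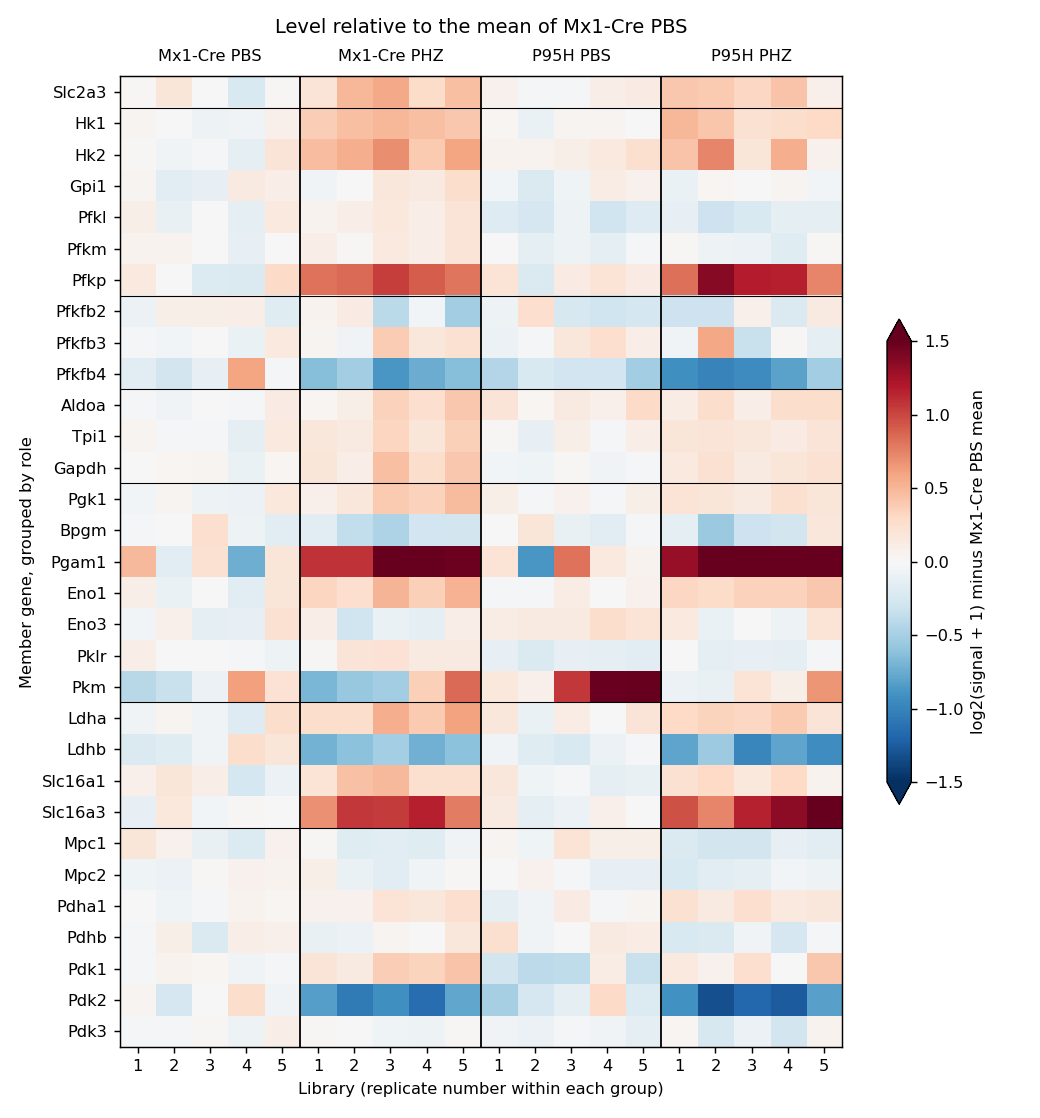
Level of the 31 tested members (rows, grouped by role) in each of the 20 libraries (columns), as log2(signal + 1) minus the mean of the 5 Mx1-Cre PBS libraries. Red is higher and blue lower, and the scale is clipped at 1.5. Pgam1, Pfkp and Slc16a3 are red and Pdk2, Pfkfb4 and Ldhb are blue in the PHZ columns of both genotypes, and Pkm is darkest in P95H PBS libraries 3 to 5.

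**Figure D2:**
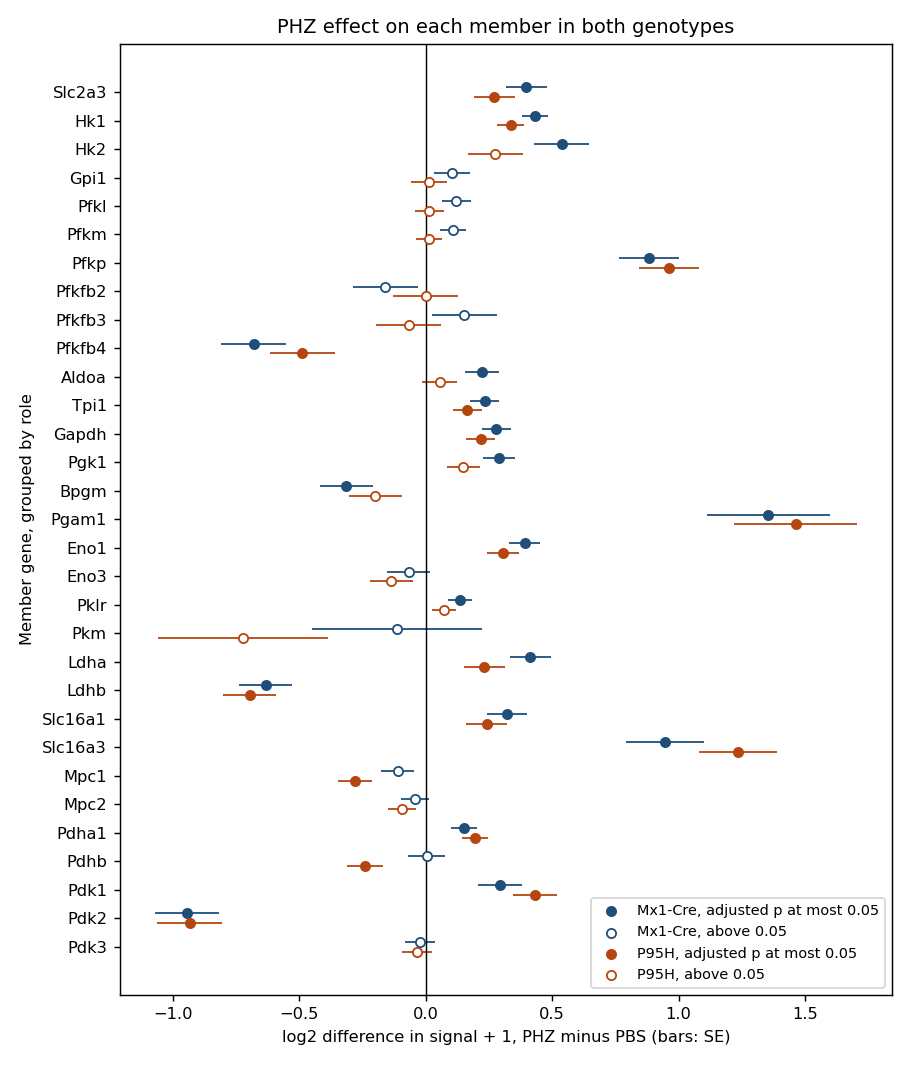
PHZ minus PBS difference of each member on the log2(signal + 1) scale, with its standard error, in Mx1-Cre (blue) and P95H (orange). Filled points passed the adjusted p threshold of 0.05. The sign was the same in both genotypes for 28 of 31 members, a count given without the share over all genes, so it is not particular to the members.

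Promoter sequence is shown for the 6 members with the largest differences among those called in both genotypes, 3 higher (Pgam1, Slc16a3 and Pfkp) and 3 lower (Pdk2, Pfkfb4 and Ldhb). Ldha, whose window held the most ACGTG matches, and the red cell pyruvate kinase gene Pklr stand beside them. RefSeq (GRCm38.p6) gave a window for 34 of the 35 members. The 250 bases before each start are printed 5′ to 3′ on the gene's strand. Capitals mark matches, on either strand, to ACGTG (the core of the hypoxia response element, seen as CACGT on the other strand) and CACCC (the box bound by Krüppel-like factors, seen as GGGTG). They also mark AGATAA, which erythroid GATA factors bind. In CACGTG, matches on both strands overlap and count separately.
Pgam1 (chr19:41911621-41911870, plus strand): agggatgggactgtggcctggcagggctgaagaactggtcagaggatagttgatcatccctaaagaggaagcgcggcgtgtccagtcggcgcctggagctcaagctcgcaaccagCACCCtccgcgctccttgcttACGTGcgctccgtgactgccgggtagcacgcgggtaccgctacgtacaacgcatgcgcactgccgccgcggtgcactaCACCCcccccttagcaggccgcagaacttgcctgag
Slc16a3 (chr11:120948817-120949066, plus strand): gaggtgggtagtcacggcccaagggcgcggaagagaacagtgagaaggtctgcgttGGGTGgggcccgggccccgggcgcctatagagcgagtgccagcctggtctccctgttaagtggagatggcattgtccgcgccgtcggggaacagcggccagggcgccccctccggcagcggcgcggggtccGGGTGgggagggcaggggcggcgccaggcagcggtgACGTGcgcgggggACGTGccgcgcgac
Pfkp (chr13:6648772-6649021, minus strand): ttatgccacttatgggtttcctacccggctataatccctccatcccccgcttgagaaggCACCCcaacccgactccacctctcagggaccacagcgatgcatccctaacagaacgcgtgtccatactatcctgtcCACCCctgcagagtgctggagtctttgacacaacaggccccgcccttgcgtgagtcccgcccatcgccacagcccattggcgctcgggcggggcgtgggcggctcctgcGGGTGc
Pdk2 (chr11:95041372-95041621, minus strand): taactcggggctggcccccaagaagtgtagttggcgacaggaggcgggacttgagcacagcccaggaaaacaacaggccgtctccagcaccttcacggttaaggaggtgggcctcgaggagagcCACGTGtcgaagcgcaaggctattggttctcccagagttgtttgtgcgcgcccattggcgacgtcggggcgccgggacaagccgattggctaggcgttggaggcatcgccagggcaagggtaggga
Pfkfb4 (chr9:108991652-108991901, plus strand): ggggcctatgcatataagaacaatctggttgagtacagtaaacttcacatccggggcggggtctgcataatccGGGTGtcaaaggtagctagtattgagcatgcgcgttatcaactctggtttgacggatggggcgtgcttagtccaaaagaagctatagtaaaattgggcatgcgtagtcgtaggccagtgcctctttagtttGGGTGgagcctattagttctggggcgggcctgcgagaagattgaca
Ldhb (chr6:142507958-142508207, minus strand): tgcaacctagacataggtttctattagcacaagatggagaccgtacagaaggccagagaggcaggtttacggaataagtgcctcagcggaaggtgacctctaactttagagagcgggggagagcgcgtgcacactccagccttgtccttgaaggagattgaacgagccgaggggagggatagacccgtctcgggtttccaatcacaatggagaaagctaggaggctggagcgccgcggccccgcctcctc
Ldha (chr7:46845554-46845803, plus strand): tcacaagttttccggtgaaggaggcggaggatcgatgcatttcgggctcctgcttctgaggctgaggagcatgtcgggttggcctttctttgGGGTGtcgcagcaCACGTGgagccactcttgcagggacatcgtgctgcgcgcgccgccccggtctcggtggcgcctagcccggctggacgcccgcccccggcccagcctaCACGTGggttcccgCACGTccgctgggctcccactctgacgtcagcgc
Pklr (chr3:89135892-89136141, plus strand): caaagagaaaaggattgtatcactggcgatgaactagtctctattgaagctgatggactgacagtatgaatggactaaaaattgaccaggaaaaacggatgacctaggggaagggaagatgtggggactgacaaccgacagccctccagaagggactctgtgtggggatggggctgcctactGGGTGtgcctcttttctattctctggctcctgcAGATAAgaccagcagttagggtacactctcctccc
Slc16a3 held 2 matches to ACGTG and Pgam1 held 1. Pdk2, which fell after PHZ, held 2 in a single CACGTG, while Pfkp, Pfkfb4 and Ldhb held 0. So 3 of the 6 windows held ACGTG, among genes that rose and genes that fell. The Ldha window held 5, 4 of them in a pair of CACGTG sites. For Ldha, 1 of 2 listed starts is shown, 4329 bases inside the gene model. The Slc16a3 start lay 587 bases inside its gene model, and Pdk2 is shown from 1 of 2 listed starts. Pklr, shown from 1 of 2 listed starts, held no ACGTG, 1 match to CACCC and 1 to AGATAA. Across members, ACGTG lay in 12 of 34 windows (35.3%), against 16.6% of 32851 windows of the same length in the table. AGATAA lay in 3 of 34 (8.82%, against 9.99%), and CACCC in 19 of 34 (55.9%, against 52.0%). Of the 11 windows of members higher in both genotypes, 4 held ACGTG, 9 held CACCC and 0 held AGATAA. These are matches of letters, and binding was not measured.

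Of the 3 tested genes of glucose uptake and its first phosphorylation, Slc2a3 and Hk1 rose with PHZ in both genotypes and Hk2 in Mx1-Cre. Slc2a3, a high-affinity glucose transporter, was at 30.4, 34.2, 29.9, 25.5 and 30.3 in the Mx1-Cre PBS libraries and 34.4, 42.6, 44.9, 36.5 and 41.2 in Mx1-Cre PHZ. In P95H it was at 31.4, 29.4, 29.5, 32.2 and 32.8 with PBS and 39.9, 39.5, 37.5, 40.5 and 31.6 with PHZ. All Mx1-Cre PHZ libraries lay above all Mx1-Cre PBS libraries, and the log2 difference was 0.40 ± 0.081 (SE, adjusted p = 8.29e-04), whereas in P95H the PHZ library 5 lay inside the PBS range, with a difference of 0.27 ± 0.081 (SE, adjusted p = 0.0139). With granulocyte marker level as a covariate the P95H difference was 0.24 (adjusted p = 0.212). In P95H that level itself fell with PHZ (mean log2 4.246 with PBS and 2.655 with PHZ), so this fit cannot separate it well from treatment. With it 9.12% of all genes passed in P95H, against 30.2% without it. A call lost with this covariate in P95H, here and below, therefore does not show what the difference came from. Hk1 (chr10:62268855-62379908, minus strand, GRCm38), the hexokinase that commits glucose to the cell, was at 409, 398, 376, 382 and 419.6 with PBS and 510.4, 543, 560.4, 541 and 525 with PHZ in Mx1-Cre. Its P95H values were 406, 370.5, 409, 407 and 398 with PBS and 561, 528, 465, 477 and 486 with PHZ. The groups did not overlap in either genotype, and the differences were 0.43 ± 0.053 (SE, adjusted p = 3.41e-06) and 0.34 ± 0.053 (SE, adjusted p = 5.73e-05). Hk2, the insulin-responsive isozyme, was low throughout. In Mx1-Cre it was at 1.27, 1.16, 1.2, 1.05 and 1.56 with PBS and 2.1, 2.27, 2.64, 1.95 and 2.37 with PHZ, and the PHZ libraries were all higher (0.54 ± 0.11 SE, adjusted p = 8.00e-04). In P95H it was at 1.33, 1.32, 1.39, 1.48 and 1.65 with PBS and 2.02, 2.73, 1.54, 2.26 and 1.34 with PHZ. Those groups overlapped and the difference was not called (0.27 ± 0.11 SE, adjusted p = 0.0597). Slc2a1 was at 0.555 ± 0.141, 0.689 ± 0.0976, 0.742 ± 0.227 and 0.975 ± 0.168 in the groups in the order Mx1-Cre with PBS and PHZ, then P95H with PBS and PHZ.

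Of the phosphofructokinase genes, only the minor isozyme was called after PHZ, in both genotypes. Pfkp (chr13:6579768-6648777, minus strand), the platelet-type subunit, was at 6.84, 6.07, 5.16, 5.09 and 7.68 in Mx1-Cre PBS and 11.5, 11.8, 13.6, 12.4 and 11.4 in Mx1-Cre PHZ. In P95H the values were 7.2, 5.14, 6.75, 7.22 and 6.72 with PBS and 11.6, 17.3, 15.1, 14.9 and 10.8 with PHZ. Every PHZ library exceeded every PBS library, and the differences were 0.88 ± 0.12 (SE, adjusted p = 1.14e-05) in Mx1-Cre and 0.96 ± 0.12 (SE, adjusted p = 3.67e-06) in P95H. The major subunits Pfkm and Pfkl differed by 0.11 and 0.12 in Mx1-Cre and by 0.015 and 0.014 in P95H, none past the threshold. Glucose-6-phosphate isomerase (Gpi1) was also not called, with 0.11 and 0.013. Pfkp shares 748 exonic bases with Pitrm1 on the opposite strand, which was at 205 in both Mx1-Cre groups and at 192 and 187 in P95H PBS and PHZ. Whether the libraries kept strand was not stated in the labels, and without strand the reads of that stretch cannot be told apart.

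Of the 3 tested genes that set fructose 2,6-bisphosphate, an activator of phosphofructokinase, 1 was lower after PHZ and none was higher. Pfkfb4, a bifunctional kinase and phosphatase of that metabolite, was at 6.4, 5.8, 6.6, 11.4 and 7.07 in Mx1-Cre PBS and 4.31, 4.76, 3.5, 3.94 and 4.32 in Mx1-Cre PHZ. The P95H libraries were at 5.07, 6.04, 5.77, 5.77 and 4.75 with PBS and 3.37, 3.11, 3.28, 3.73 and 4.74 with PHZ. It was lower after PHZ with no overlap in both genotypes. The differences were -0.68 ± 0.13 (SE, adjusted p = 4.47e-04) and -0.49 ± 0.13 (SE, adjusted p = 0.00642), and in P95H the call did not hold with granulocyte marker level as a covariate (-0.38, adjusted p = 0.226). Pfkfb2 was at 13.5 ± 1.25 and 12.1 ± 2.5 in Mx1-Cre and 12.4 ± 2.25 and 12.4 ± 2.05 in P95H. Pfkfb3, the form with high kinase activity, had group means from 1.85 ± 0.189 to 2.18 ± 0.368. Neither Pfkfb2 nor Pfkfb3 was called in any comparison. Tigar, a phosphatase that lowers fructose 2,6-bisphosphate, was at 0.179 ± 0.135 in Mx1-Cre PBS and at 0.112 ± 0.0776 in P95H PHZ.

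Genes of the triose steps rose with PHZ, all 3 tested in Mx1-Cre and 2 of them in P95H. Gapdh, which makes the NADH that lactate dehydrogenase uses, was at 1368, 1387, 1404, 1270 and 1387 in Mx1-Cre PBS and 1540, 1460, 1865, 1640 and 1802 in Mx1-Cre PHZ. In P95H it was at 1324, 1302, 1380, 1319 and 1330 with PBS and 1502, 1597, 1501, 1544 and 1599 with PHZ. Groups did not overlap in either genotype, and the differences were 0.28 ± 0.058 (SE, adjusted p = 9.37e-04) and 0.22 ± 0.058 (SE, adjusted p = 0.00633). Tpi1, triosephosphate isomerase, was at 379.6, 362, 362, 335 and 407 with PBS and 414, 405, 461, 419 and 473 with PHZ in Mx1-Cre. Its P95H levels were 374, 337, 392, 360.0 and 394 with PBS and 417, 419.9, 416, 403 and 422 with PHZ. It rose in Mx1-Cre, where only PHZ library 2 lay under the highest PBS library (0.23 ± 0.057 SE, adjusted p = 0.00378), and in P95H without overlap (0.16 ± 0.057 SE, adjusted p = 0.0339). The P95H call of Tpi1 was lost when any of 6 libraries was left out singly (adjusted p 0.0543 to 0.0995), and without PBS libraries 4 and 5 (0.18, adjusted p = 0.0707). Aldoa, the main aldolase, was at 322, 317, 327, 321 and 358 with PBS and 336, 349, 418, 391 and 435 with PHZ in Mx1-Cre, and rose there with overlap (0.22 ± 0.068 SE, adjusted p = 0.0163). P95H values of Aldoa were 377, 334, 360.0, 347 and 402 with PBS and 355, 395, 353, 394 and 394 with PHZ, which overlapped and were not called (0.056 ± 0.068 SE, adjusted p = 0.573). Without Mx1-Cre PHZ library 3 the Mx1-Cre difference was 0.19 (adjusted p = 0.0542). Aldoc, under the filter, was between 0.347 and 1.03 in all 20 libraries. Gapdh has 50 near-identical copies in the annotation (at least 95% identity over 200 bases), whose summed means were between 209 and 237. With them added, the differences of Gapdh were 0.26 and 0.17, both past the threshold.

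Of the 7 tested genes of the lower steps, Pgam1 and Eno1 rose in both genotypes, and Bpgm fell in Mx1-Cre. Pgam1 (chr19:41911923-41918660, plus strand), phosphoglycerate mutase, had by its own entry alone the largest difference of any member in both genotypes. It was at 5.94, 3.44, 4.82, 1.98 and 4.62 in Mx1-Cre PBS and 9.53, 9.55, 13.9, 13.3 and 12.8 in Mx1-Cre PHZ. In P95H it was at 4.72, 1.7, 7.74, 4.5 and 4.13 with PBS and 11.3, 12.9, 16.2, 13.7 and 13.1 with PHZ. The lowest PHZ library lay above the highest PBS library in each genotype, and the differences were 1.35 ± 0.24 (SE, adjusted p = 3.73e-04) and 1.46 ± 0.24 (SE, adjusted p = 1.63e-04). Its processed copy Pgam1-ps2 matches it at 100% over 765 bases, so the split of reads between the copies is uncertain, and the copy held more signal: 23.9 and 50.4 in Mx1-Cre and 22.4 and 50.8 in P95H. The sum of both rose from 28.1 ± 2.63 to 62.2 ± 9.61 in Mx1-Cre (log2 difference 1.11, adjusted p = 3.88e-07) and from 27.0 ± 3.67 to 64.2 ± 8.83 in P95H (1.22, adjusted p = 1.04e-07). In P95H that summed difference was under the 1.235 of Slc16a3. Eno1, the ubiquitous enolase, was at 251, 222, 236, 213 and 269 with PBS and 297, 282, 338, 305 and 341 with PHZ in Mx1-Cre. In P95H the enolase was at 235, 233, 257, 238 and 249 with PBS and 295, 287, 301, 301 and 315 with PHZ. It rose with no overlap in either genotype (0.39 ± 0.062 SE, adjusted p = 8.11e-05 in Mx1-Cre and 0.31 ± 0.062 SE, adjusted p = 8.43e-04 in P95H). Pgk1, the first ATP-yielding step, rose in Mx1-Cre from 115 ± 8.28 to 141 ± 15.9 (0.29 ± 0.064 SE, adjusted p = 0.00184). In P95H the values were 118 ± 4.64 and 131 ± 3.48, not called (0.15 ± 0.064 SE, adjusted p = 0.0832). Bpgm, which makes 2,3-bisphosphoglycerate, was at 24.5, 24.8, 29.7, 23.4 and 21.8 in Mx1-Cre PBS and 22, 18.9, 17.7, 20 and 20.2 in Mx1-Cre PHZ. The difference was -0.31 ± 0.10 (SE, adjusted p = 0.0259), with PHZ library 1 inside the PBS range, and the adjusted p was 0.0818, 0.0539 and 0.0724 without Mx1-Cre PBS library 3, PHZ library 2 and PHZ library 3. It was 0.0646 with the library factor divided out, 0.0549 with no filter on low values and 0.0603 with granulocyte marker level as a covariate. P95H values of Bpgm were 24.4 ± 2.47 and 21.4 ± 4.24, not called (-0.20 ± 0.10 SE, adjusted p = 0.154). Pklr was 0.14 higher after PHZ in Mx1-Cre (adjusted p = 0.0314), a call lost when any of 7 libraries was left out singly (adjusted p 0.0504 to 0.0919) with quantile normalization (0.092, adjusted p = 0.173), with the compared groups fitted alone (0.0569) and with the granulocyte covariate (0.0516). Eno3, the muscle enolase, was not called in either genotype.

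Both lactate transporters and Ldha rose after PHZ in both genotypes, and Ldhb fell. Slc16a3 (chr11:120948480-120960868, plus strand), the transporter MCT4 known for lactate export from glycolytic cells, was at 1.91, 2.54, 2.09, 2.21 and 2.16 in Mx1-Cre PBS and 4.12, 5.61, 5.56, 6.15 and 4.41 in Mx1-Cre PHZ. The P95H values were 2.48, 1.9, 1.99, 2.35 and 2.16 with PBS and 5.15, 4.29, 6.08, 7.05 and 11.4 with PHZ, with library 5 of the last group the highest of all 20. All PHZ libraries exceeded all PBS libraries, and the differences were 0.95 ± 0.16 (SE, adjusted p = 1.12e-04) in Mx1-Cre and 1.24 ± 0.16 (SE, adjusted p = 4.89e-06) in P95H. Its level stayed far under that of Slc16a1 (MCT1), which rose from 247 ± 29.5 to 308 ± 27.5 (0.32 ± 0.080 SE, adjusted p = 0.00422) in Mx1-Cre and from 240.5 ± 20.8 to 284 ± 20.2 (0.24 ± 0.080 SE, adjusted p = 0.0262) in P95H. In P95H that call of Slc16a1 was lost without PBS libraries 4 and 5 (0.18, adjusted p = 0.187), without PBS library 4 or 5 or PHZ library 2 or 4 alone (adjusted p 0.0595 to 0.0668) and with granulocyte marker level as a covariate (0.048, adjusted p = 0.821). Ldha, the lactate dehydrogenase subunit that favours pyruvate reduction, was at 686, 729, 683, 623 and 852 with PBS and 851, 851, 1036, 935 and 1084 with PHZ in Mx1-Cre. P95H libraries had 799, 662, 766, 715 and 812 with PBS and 875, 894, 882, 934 and 816 with PHZ. The lowest Mx1-Cre PHZ libraries met the highest PBS library, and the difference was 0.41 ± 0.081 (SE, adjusted p = 6.11e-04). In P95H there was no overlap and the difference was 0.23 ± 0.081 (SE, adjusted p = 0.0339), with an adjusted p between 0.0521 and 0.0960 when any of 6 libraries was left out singly, and 0.0751 without PBS libraries 4 and 5. Ldhb, the subunit that favours lactate oxidation, was at 1.19, 1.24, 1.46, 2.05 and 1.89 in Mx1-Cre PBS and 0.555, 0.665, 0.789, 0.548 and 0.657 in Mx1-Cre PHZ. Its P95H levels were 1.45, 1.25, 1.17, 1.39 and 1.51 with PBS and 0.471, 0.736, 0.291, 0.472 and 0.329 with PHZ. It was lower after PHZ in both, without overlap, with differences of -0.63 ± 0.10 (SE, adjusted p = 1.18e-04) and -0.70 ± 0.10 (SE, adjusted p = 3.78e-05). Only the PBS libraries of Ldhb reached 1, so it passed the filter through the groups where it was high. Its levels were near the floor throughout, and its calls also held with no filter on low values.

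**Figure D3:**
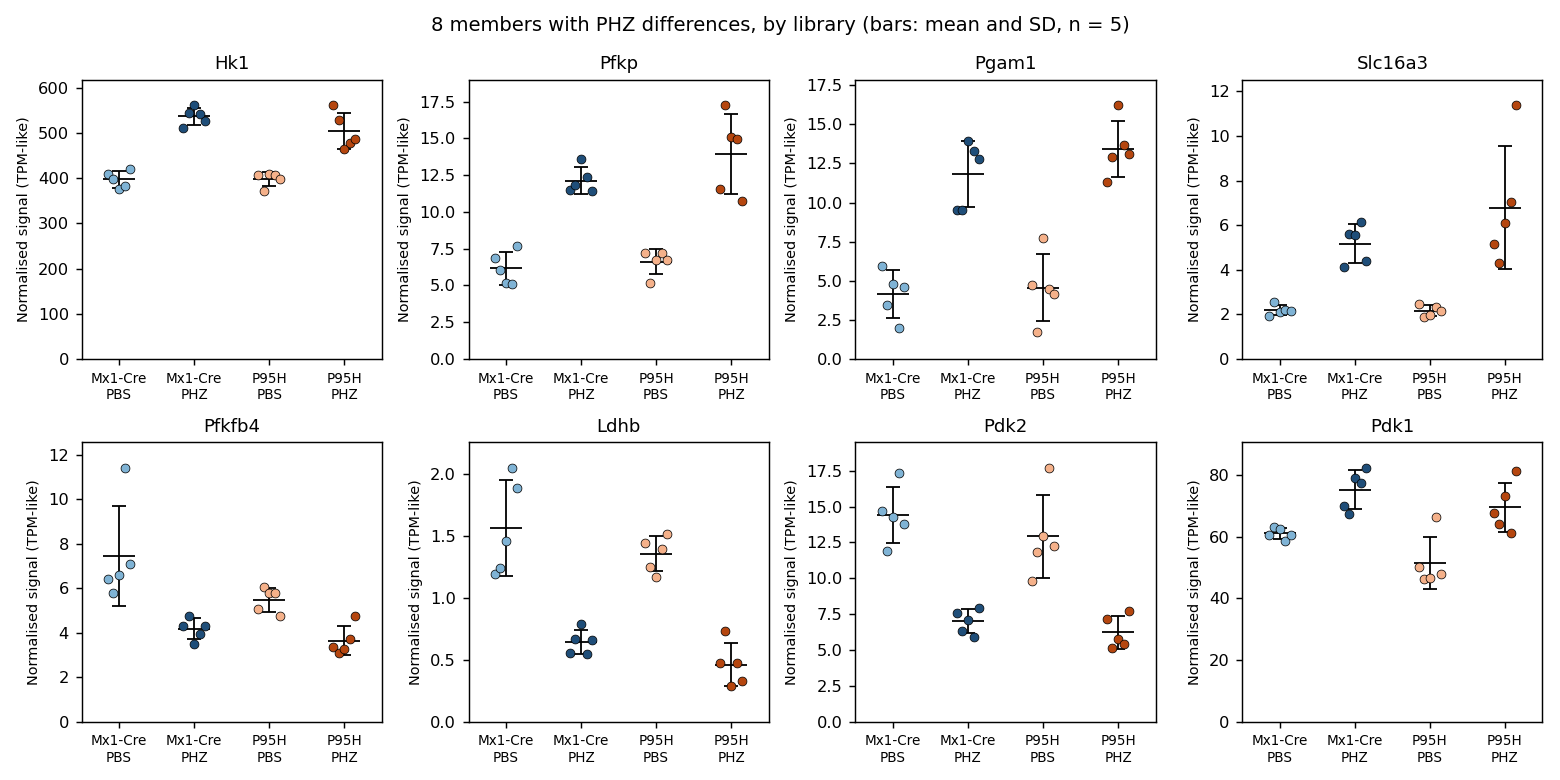
Signal of 8 members in each library (points) with the group mean and SD (bars, n = 5), each panel with its own axis from 0. Pfkp, Pgam1 and Slc16a3 are higher, and Pfkfb4, Ldhb and Pdk2 lower, in all PHZ libraries than in all PBS libraries of the same genotype. Pdk1 in P95H PBS library 4 lies among the PHZ values.

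Of the 7 genes of pyruvate entry, Pdk1 and Pdha1 were higher and Pdk2 lower after PHZ in both genotypes, and Mpc1 and Pdhb were lower in P95H. Pdk2 (chr11:95026258-95041354, minus strand), a kinase that inactivates pyruvate dehydrogenase, was at 14.7, 11.9, 14.3, 17.4 and 13.8 in Mx1-Cre PBS and 7.6, 6.35, 7.12, 5.94 and 7.94 in Mx1-Cre PHZ. In P95H it was at 9.8, 11.8, 13, 17.7 and 12.2 with PBS and 7.13, 5.13, 5.76, 5.43 and 7.72 with PHZ. It fell without overlap in both genotypes, with differences of -0.94 ± 0.13 (SE, adjusted p = 1.20e-05) and -0.93 ± 0.13 (SE, adjusted p = 1.17e-05). Pdk1, the hypoxia-inducible kinase of the same complex, moved the other way. Its values in Mx1-Cre were 60.5, 63.2, 62.6, 58.6 and 60.5 with PBS and 70, 67.3, 79.2, 77.5 and 82.3 with PHZ. In P95H they were 50.2, 46.3, 46.7, 66.3 and 48.1 with PBS and 67.8, 64.1, 73.2, 61.2 and 81.3 with PHZ. Its differences were 0.29 ± 0.087 (SE, adjusted p = 0.0131), without overlap, and 0.43 ± 0.087 (SE, adjusted p = 7.33e-04), where P95H PBS library 4 lay within the PHZ range. Pdk3 was at 62 ± 3.01 and 61 ± 1.87 in Mx1-Cre and was not called in either genotype. Pdha1, the catalytic alpha subunit of pyruvate dehydrogenase, was at 141, 135, 139.8, 146 and 144 with PBS and 148, 148, 163, 158 and 168 with PHZ in Mx1-Cre, and at 129, 136, 154, 139.8 and 145 with PBS and 166, 156, 168, 156 and 159 with PHZ in P95H. It rose without overlap in both, with differences of 0.15 ± 0.051 (SE, adjusted p = 0.0252) and 0.19 ± 0.051 (SE, adjusted p = 0.00568), and the Mx1-Cre call was lost when any of 4 libraries was left out singly (adjusted p 0.0504 to 0.0670) and with quantile normalization (0.10, adjusted p = 0.144). Pdhb, the beta subunit, was at 174, 189, 153, 191 and 188 with PBS and 164, 168, 183, 179.6 and 200.3 with PHZ in Mx1-Cre, with means of 179 ± 15.9 and 179 ± 14.2. In P95H it was at 211, 172, 179, 196 and 192 with PBS and 152, 153, 172, 149 and 176 with PHZ and was called lower (-0.24 ± 0.072 SE, adjusted p = 0.0144). Mpc1, a subunit of the mitochondrial pyruvate carrier, was at 138, 129, 155, 143 and 143 with PBS and 116, 111, 112, 124 and 119.9 with PHZ in P95H, and fell there without overlap (-0.28 ± 0.066 SE, adjusted p = 0.00275). In Mx1-Cre it was at 153, 140.4, 125, 117 and 141 with PBS and 136, 119, 121, 119 and 129.5 with PHZ, a difference of -0.11 that was not called. With granulocyte marker level as a covariate the P95H differences of Pdhb and Mpc1 were -0.073 and -0.24 (adjusted p = 0.687 and 0.117), and with the library factor divided out they were -0.14 and -0.17 (adjusted p = 0.117 and 0.0694). Mpc1 shares sequence with Mpc1-ps, and with that copy added its differences were -0.19 in Mx1-Cre and -0.31 in P95H, both past the threshold. Mpc2, its partner in the carrier, differed by -0.042 and -0.092, not called.

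Isozyme shares, which do not depend on the scaling of a library, were compared for 13 isozymes in 4 comparisons. Each of the 52 tests was an exact permutation test, two-sided, on all 252 ways to divide 10 libraries, with a smallest possible p of 0.007937 and adjustment over the 52. After PHZ 8 shares passed in Mx1-Cre and 7 in P95H. Pfkp rose from 2.9% ± 0.406 to 5.17% ± 0.379 of phosphofructokinase signal in Mx1-Cre, and from 3.36% ± 0.406 to 6.81% ± 1.49 in P95H. Pdk1 rose from 44.5% ± 1.36 to 52.5% ± 2.48 and from 41.6% ± 2.86 to 52.1% ± 1.75, while Pdk2 fell from 10.5% ± 1.54 to 4.88% ± 0.485 and from 10.4% ± 1.47 to 4.65% ± 0.444. Ldhb, whose signal was under 1 in every PHZ library, fell from 0.221% ± 0.064 to 0.0677% ± 0.00894 and from 0.18% ± 0.0163 to 0.052% ± 0.0188. Eno1 rose from 93.2% ± 0.668 to 95% ± 0.54 and from 92.5% ± 0.427 to 94.4% ± 0.432 of the enolases. The Slc16a1 share, of Slc16a1 plus Slc16a3, fell from 99.1% ± 0.132 to 98.3% ± 0.25 and from 99.1% ± 0.096 to 97.6% ± 1.12. Each of these 6 shares had no overlap between groups in both genotypes (p = 0.00794, adjusted p = 0.0318, exact permutation test, the smallest it can give). Pfkfb4 fell from 32.3% ± 5.73 to 22.7% ± 2.76 in Mx1-Cre (p = 0.0159, adjusted p = 0.0459) and from 27.7% ± 2.46 to 20.2% ± 2.22 in P95H (p = 0.00794, adjusted p = 0.0318), by the same exact permutation test. The Hk1 share fell by 0.108 percentage points in Mx1-Cre (p = 0.0159, adjusted p = 0.0459, exact permutation test). In Mx1-Cre the Hk1 and Pfkfb4 shares each missed the threshold in 9 of the 10 cases in which a library was left out, and the Eno1 share without PBS library 1 or 4 (adjusted p = 0.0516, exact permutation test).

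**Figure D4:**
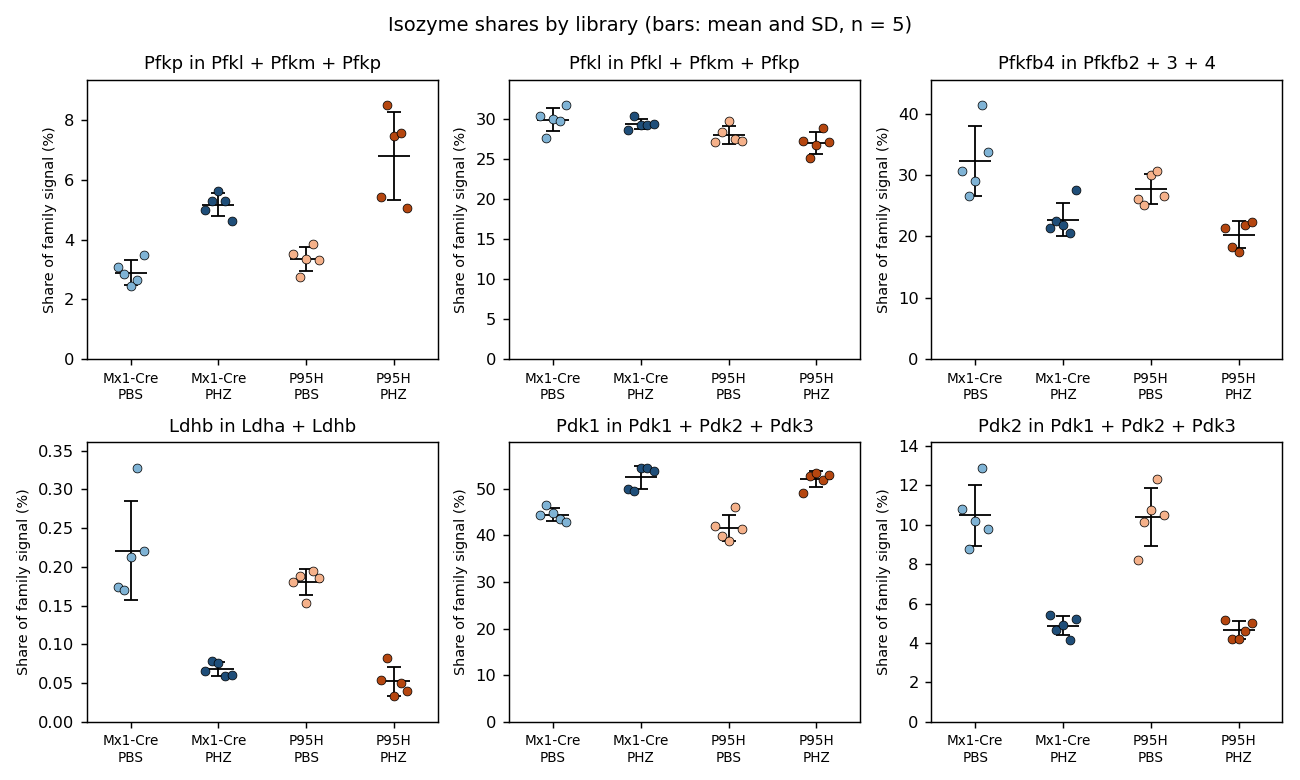
Share of the summed signal of its family held by 6 isozymes (vertical axis, percent, from 0), per library with the mean and SD of 5. Pfkp and Pdk1 take a larger share and Pfkfb4, Ldhb and Pdk2 a smaller one in both PHZ groups, and the Pfkl share is lower in P95H PHZ than in Mx1-Cre PHZ.

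Between the genotypes few members differed. Under PBS no member passed by limma, where 1.48% of all genes passed, and 6 members had an unadjusted p under 0.05, against 14.1% of all genes. The smallest p-values were those of Pfkl (-0.20 ± 0.058 SE, adjusted p = 0.0912), Pklr (-0.16 ± 0.047 SE, adjusted p = 0.111) and Pdk1 (-0.25 ± 0.087 SE, adjusted p = 0.165), all lower in P95H. Pklr was the only member without overlap under PBS (background 2.78% lower and 0.891% higher), at 344, 319, 322, 315 and 304 in Mx1-Cre and 294, 276, 294, 289 and 285 in P95H. Without P95H PBS library 4, Pdk1 was -0.35 and passed (adjusted p = 0.0157).

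After PHZ 3 members were lower in P95H and none was higher, where 5.47% of all genes passed, 4.37% lower and 1.1% higher. The groups did not overlap for 2 members, both lower, against 5.38% lower and 1.57% higher of all genes. Pfkl (chr10:77986947-78010083, minus strand), the liver-type phosphofructokinase subunit, was at 65.5, 67.8, 70.7, 68 and 72.4 in Mx1-Cre PHZ and 58.1, 50.8, 54, 57 and 57.4 in P95H PHZ. With PBS it was at 67.5, 58.5, 63.4, 57.6 and 69.9 in Mx1-Cre and 55.3, 53, 59.9, 51.2 and 55.2 in P95H. The PHZ groups did not overlap, with a difference of -0.31 ± 0.058 (SE, adjusted p = 0.00417), and this call held under every alternative run. Pklr (chr3:89136142-89146784, plus strand), the pyruvate kinase of red cells, was at 324, 366, 372, 351 and 351 in Mx1-Cre PHZ and 323, 291, 294, 291 and 316 in P95H PHZ. Those groups did not overlap either, and the difference was -0.22 ± 0.047 (SE, adjusted p = 0.0087). Pfkm, the muscle-type subunit, was at 152, 144, 157, 152 and 163 in Mx1-Cre PHZ and 144, 135, 133, 126 and 144 in P95H PHZ. Its difference was -0.17 ± 0.051 (SE, adjusted p = 0.049), with ranges that met near 144. Averaged over the treatments, the same 3 members passed and were lower in P95H, with differences of -0.25 ± 0.041 (SE, adjusted p = 5.00e-04) for Pfkl, -0.19 ± 0.034 (SE, adjusted p = 0.00105) for Pklr and -0.13 ± 0.036 (SE, adjusted p = 0.0271) for Pfkm, where 10.5% of all genes passed, 7.88% lower and 2.66% higher. When single libraries were left out, Pfkm lost its call in 14 of 20 cases after PHZ. The averaged call of Pfkm was lost with TMM factors (adjusted p = 0.168), quantile normalization (0.0541) and the library factor divided out (0.170). It was also lost without P95H PBS libraries 4 and 5 (0.0593), and without Mx1-Cre PBS library 1, Mx1-Cre PHZ library 3, P95H PBS library 2 or P95H PHZ library 4 alone (0.05003 to 0.0546). The scaling bears on these calls. Among all genes after PHZ, 120 were higher and 476 lower in P95H with the deposited scaling, against 151 and 192 with TMM factors, 129 and 163 with quantile normalization, and 133 and 145 with the library factor divided out. Under those 3 scalings Pklr was -0.17, -0.17 and -0.16 (adjusted p = 0.0513, 0.0754 and 0.123) and Pfkm -0.12, -0.11 and -0.11 (adjusted p = 0.211, 0.199 and 0.358). Granulocyte marker levels of the PHZ groups overlapped, and with them as a covariate 3 members were still called after PHZ, where 6.21% of all genes were. Pklr shares 711 exonic bases with Hcn3 on the other strand, whose means were 5.08 to 6.60. In shares, Pfkl fell from 29.4% ± 0.642 to 27% ± 1.37 of phosphofructokinase signal after PHZ (p = 0.0159, adjusted p = 0.0459, exact permutation test). The Aldoa and Slc2a1 shares also passed there, at 99.9% ± 0.0191 and 99.8% ± 0.0452 for Aldoa and 1.71% ± 0.274 and 2.52% ± 0.367 for Slc2a1 (exact permutation test, both adjusted p = 0.0459). The Slc2a1 and Aldoa shares rest on genes under the filter: after PHZ Slc2a1 was at 0.689 and 0.975, and Aldoc at 0.503 and 0.721, in Mx1-Cre and P95H. When a single Mx1-Cre PHZ library was left out, none of these 3 shares passed.

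**Figure D5:**
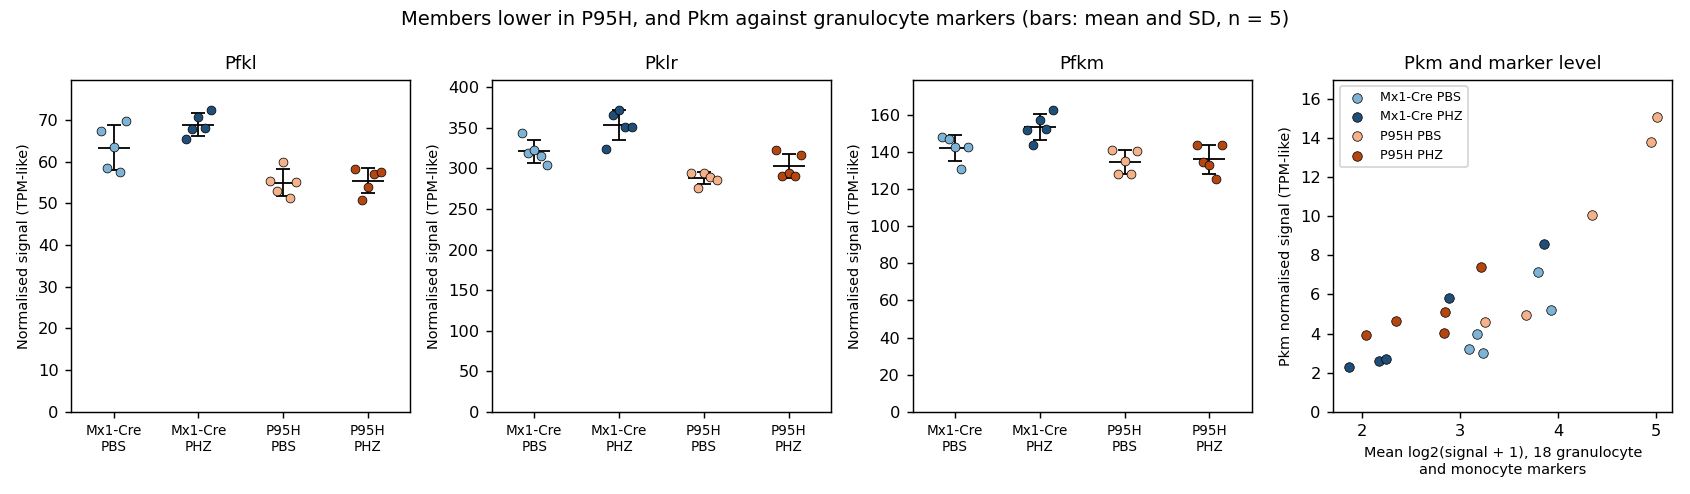
Signal of Pfkl, Pklr and Pfkm in each library with group mean and SD (n = 5), and, in the last panel, Pkm signal against the mean log2(signal + 1) of 18 granulocyte and monocyte markers, each point a library. Pfkl and Pklr after PHZ do not overlap between genotypes, and the 3 libraries with the highest marker means, all P95H PBS, have the highest Pkm.

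The response to PHZ itself was not shown to differ between the genotypes for any member. The interaction passed for 0 of 10890 genes (0%) by limma, and 577 genes (5.3%) had an unadjusted p under 0.05. Of the members, 1 did: Pdhb, with an interaction of -0.24 ± 0.10 (SE, adjusted p = 0.798) and an unadjusted p of 0.0253. Mpc1 and Aldoa followed, with -0.17 ± 0.093 (SE, adjusted p = 0.798) and -0.17 ± 0.096 (SE, adjusted p = 0.798). The interaction was below 0 for 22 of 31 members, with a median of -0.070, against -0.027 for all genes, and of -0.022, against 0.028, with the library factor divided out. Members called in only 1 genotype (Hk2, Aldoa, Pgk1, Pklr and Bpgm in Mx1-Cre, Mpc1 and Pdhb in P95H) are therefore not shown to differ between genotypes.

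Pkm, the pyruvate kinase of most other tissues, was highest in libraries with high granulocyte and monocyte markers. It was at 2.99, 3.23, 3.99, 7.13 and 5.19 in Mx1-Cre PBS, 2.31, 2.57, 2.71, 5.8 and 8.61 in Mx1-Cre PHZ, 4.94, 4.59, 10, 13.8 and 15.1 in P95H PBS and 4.02, 3.91, 5.11, 4.66 and 7.43 in P95H PHZ. The mean log2(value + 1) of the markers in the P95H PBS libraries was 3.68, 3.25, 4.35, 4.95 and 5.01, in the same order. In Mx1-Cre PHZ, where library 5 had the highest Pkm, it was 1.86, 2.17, 2.24, 2.89 and 3.85. The order was not strict. In Mx1-Cre PBS the marker mean was 3.23, 3.09, 3.17, 3.79 and 3.92, so library 4, with the highest Pkm, was not the highest in markers. In P95H PHZ it was 2.835, 2.04, 2.85, 2.34 and 3.21. The PHZ differences of Pkm were -0.11 ± 0.34 (SE, adjusted p = 0.832) in Mx1-Cre and -0.72 ± 0.34 (SE, adjusted p = 0.115) in P95H. Against Mx1-Cre, P95H differed by 0.87 ± 0.34 (SE, adjusted p = 0.232) under PBS, where the means were 4.51 ± 1.7 in Mx1-Cre and 9.69 ± 4.86 in P95H. These did not pass as fitted, but without P95H PBS library 2 the PHZ difference in P95H was -0.92 and passed (adjusted p = 0.0485). That library had the lowest Pkm and the lowest marker mean of its group. Without P95H PBS libraries 4 and 5, Pkm was not called after PHZ in P95H or between genotypes under PBS. With the marker mean as a covariate the PHZ difference of Pkm was positive and passed in both genotypes (0.58 and 0.60, adjusted p = 0.00517 and 0.0320). Of 17 kept markers of that list, 17 were called lower after PHZ in P95H and 1 in Mx1-Cre. In P95H, 13 members passed with that covariate, 11 higher and 2 lower, where 9.12% of all genes passed, 4.03% higher and 5.09% lower. Without PBS libraries 4 and 5, 13 passed, 9 higher and 4 lower, where 19.3% of all genes did, 7.69% higher and 11.6% lower. The covariate ended the calls of Slc2a3, Pfkfb4, Slc16a1, Mpc1 and Pdhb and added Pkm, and leaving out those libraries ended the calls of Tpi1, Ldha, Slc16a1 and Pdhb. In Mx1-Cre, 20 passed with the covariate, 17 higher and 3 lower, against 12.1% and 9.94% of all genes.

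Neighbouring pathways were counted from lists of genes, against the same backgrounds. After PHZ 17% of all genes were higher and 14.9% lower in Mx1-Cre, and 12.6% and 17.7% in P95H. The lists were not tested as sets. Of 24 tested other genes of glucose and pyruvate metabolism (47 listed), 5 were higher and 6 lower after PHZ in Mx1-Cre, and 3 and 6 in P95H. As shares these were 20.8% and 25%, and 12.5% and 25%, so the share higher in P95H was that of all genes. Gpd2, the mitochondrial glycerol-3-phosphate dehydrogenase that passes electrons from cytosolic NADH to the respiratory chain, was higher in both (0.50 and 0.62). Txnip and Arrdc4, arrestin-family proteins that restrain glucose uptake, were lower in both (-0.72 and -0.64 for Txnip, -0.77 and -1 for Arrdc4), as was Ldhd, the D-lactate dehydrogenase (-0.85 and -0.68). The malate-aspartate shuttle had 2 of 7 genes higher and 1 lower in Mx1-Cre, and 1 and 1 in P95H. Its aspartate aminotransferases Got1 and Got2 rose in Mx1-Cre by 0.47 and 0.20, and Mdh1, the cytosolic malate dehydrogenase, was lower in both genotypes (-0.18 and -0.29). Of 16 tricarboxylic acid cycle genes, 1 was higher and 1 lower in Mx1-Cre. In P95H 6 were lower and none higher, but 1 was lower and 1 higher with the library factor divided out, where 10.2% of all genes were lower and 23.7% higher. With the granulocyte covariate 0 passed, where 5.09% of all genes were lower. Among the 6 were Sdhc (-0.27), Fh1 (-0.22), Dlst (-0.20) and Sdhb (-0.19). Of 15 genes of glycogen and hexose interconversion, 2 were higher in Mx1-Cre (13.3%), and 2 were higher (13.3%) and 3 lower (20%) in P95H. These shares were near those of all genes. Galk1, galactokinase, was higher in both (0.39 and 0.40). Among 11 regulators tested of 16 listed, 3 were higher in Mx1-Cre: Hif1a (0.36), the oxygen-regulated transcription factor, Egln1 (0.36), the oxygen sensor that marks it for breakdown, and Mlx (0.18). In P95H Egln1 was higher (0.30) and Klf1, Gata1 and Egln2 were lower (-0.22, -0.19 and -0.16). With the library factor divided out, 3 regulators were higher and 0 lower in P95H, and with the granulocyte covariate 0 passed. Between genotypes, Slc25a13, the aspartate and glutamate carrier of the shuttle, was lower in P95H under PBS (-0.32) and after PHZ (-0.38), and Adpgk, the ADP-dependent glucokinase, was lower after PHZ (-0.22). With the library factor divided out, neither list had a call after PHZ. With the deposited scaling, 3 of 15 glycogen and hexose genes and 2 of 16 tricarboxylic acid cycle genes were also lower in P95H after PHZ. The share of all genes lower was 4.37%. Averaged over treatments, 4 and 2 of these genes were lower, against 7.88% of all genes. In the average 1 tricarboxylic acid cycle gene was higher, against 2.66% of all genes.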

How the data were processed

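RNA of sorted CFU-E cells was sequenced with paired ends, 5 libraries in each of 4 groups taken from the labels. The authors deposited 1 table of normalised signal; divided by 1 factor per library (0.940 to 1.10), all values were multiples of 0.01 (tolerance 0.01 of a step), the form of rounded TPM. The submitters' processing notes name RSEM 1.2.4, Bowtie, TopHat2 2.0.8b and TopHat, and hg19, GRCh37, mm10 and GRCm38, with no role. The annotation, strandedness and origin of the factors are not given in the sources used here. Symbols and positions came from GENCODE vM21 (GRCm38).

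Entries that reached 1 in 5 or more libraries were kept. limma 3.58.1 (R 4.3.3), with trended, robust moderation, fitted log2(value + 1) with 1 mean per group over 20 libraries. P-values were two-sided and Benjamini-Hochberg adjusted over 10890 entries, with a threshold of 0.05. Contrasts that share a group are not independent. Members and lists were chosen with earlier results of these data known. Values in every library are given for called members with the largest differences (up to 3 a role in each PHZ contrast) and for those called between genotypes or, where none was, the 3 with the smallest p. Up to 4 called genes are named from each other list. Pkm was described after its values were seen. The fit was tested on simulated data with 200 of 10890 genes changed: for the PHZ contrasts it recovered 86% of changes of 0.5 in both genotypes, and 98% (Mx1-Cre) and 100% (P95H) of changes of 1, and for P95H under PBS 87% and 99%. Changes under 0.5, the size of every genotype call of a member, were not simulated, so recovery at that size is unknown. The changed genes were drawn only from genes above a mean signal that excluded low members such as Ldhb and Hk2. Recovery for such low genes is therefore unknown too. The simulated noise was normal and independent between genes, and far fewer genes were changed than were called after PHZ, so recovery in these data may differ. Copies were found with blastn 2.17.0. Alternatives covered scaling, pseudocounts of 0.1 and 5, filters, moderation, samples, covariates, a replicate block and leaving out each library. Adding near-identical copies to their member was chosen after seeing the data.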

Additional observations from a re-analysis of the deposited data

Results flagged for a closer look

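In 5 of the 124 sets of 5 libraries examined (31 members in 4 groups), a library's gap to its nearest neighbour exceeded 0.71 of the group's range. Chance gives about 1 such set in 20. Pfkfb4 in Mx1-Cre PBS library 4 was high, at 11.4 against 7.07 in the next library (gap 0.774 of the range), and Gapdh in the same library was low, at 1270 against 1368 (0.732). Aldoa in Mx1-Cre PBS library 5 was high, at 358 against 327 (0.764). Pfkp in P95H PBS library 2 was low, at 5.13 against 6.72 (0.762). Pdk1 in P95H PBS library 4, 1 of the libraries with the highest granulocyte markers, was high, at 66.3 against 50.2 (0.806). The source of these gaps was not tested.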

How the results depend on the processing

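Of 43 member calls over the comparisons, 29 passed under every alternative run, 14 lost the threshold under at least 1, and none changed sign. After PHZ, members called numbered 16 to 20 with a library left out and 18 to 22 otherwise in Mx1-Cre (20 reported), and 14 to 18 and 13 to 19 in P95H (17 reported). With the library factor divided out, 15 members were higher and 3 lower in P95H, and the calls over all genes were 2238 higher and 1215 lower in Mx1-Cre and 2584 and 1110 in P95H, against 1856 and 1618, and 1371 and 1923, as reported. Under PBS, 0 members differed between genotypes as reported, and 3 with library weights (Pfkl, Pklr and Pdk1), 1 with the granulocyte covariate and 1 without P95H PBS libraries 4 and 5 (Pdk1 in both), with 0 to 1 when a library was left out. Of all genes, 1.48% passed under PBS as reported and 4.94% with library weights. The shares were 1.05% with the granulocyte covariate and 0.90% without P95H PBS libraries 4 and 5. After PHZ, 3 members differed as reported, 1 (Pfkl) with TMM factors, 1 with quantile normalization and 1 with the factor divided out, and 2 to 3 with a library left out. Of all genes, 5.47% passed after PHZ as reported. The 3 scalings gave 3.15%, 2.68% and 2.55%, in the same order. Averaged over treatments, 2 to 5 did with a library left out, 5 without P95H PHZ library 5 (Pdk1 and Pfkfb4 added). The interaction stayed at 0 throughout. Pfkm after PHZ lost its call under 23 alternatives, among them the scalings above. Adding near-identical copies, chosen after seeing the data, gave 21 and 17 calls after PHZ, where 32.0% and 30.3% of all genes passed.

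With a library left out, isozyme shares passed in 5 to 7 cases after PHZ in Mx1-Cre (8 reported), 7 to 8 in P95H (7), 0 to 2 between genotypes under PBS (0; 2 without P95H PBS library 4) and 0 to 4 after PHZ (3). As log2 ratios to the rest of the family, 6, 7, 0 and 0 passed.

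Replicate numbers are shared across groups, but nothing in the labels pairs the mice. Over 30 same-numbered pairs the correlation of deviations from the group means was -0.31 to 0.44 (median 0.028), 13 pairs were over 0.1, and 4 of 20 libraries were closest to their own number. With the replicate block, 20 and 18 members were called after PHZ in Mx1-Cre and P95H, 1 (Pkm) between genotypes under PBS, 3 after PHZ and 4 averaged, and 0 for the interaction. In the same order, the shares of all genes called with that block were 32.9%, 30.8%, 1.74%, 5.67%, 11.4% and 0%. Pkm, not called as reported, was then called after PHZ in P95H (-0.72, adjusted p = 0.00385), under PBS (0.87, adjusted p = 0.0144) and averaged (0.57, adjusted p = 0.00587). Paired sign-flip tests of shares passed 0 in each comparison, since the smallest p with 5 pairs is 0.0625.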
